A study of Drosophila melanogaster with 4 samples.

Results

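Of 11981 genes named on the array, 9 were chosen by their signal in Drosophila wing imaginal discs, which differed between arrays with and without Hdac3 RNAi, both with and without overexpression of PI3K. They are Tektin-C, CG12773, CG9021 and Rnf11, which were higher with Hdac3 RNAi, and Ect3, CG7900, insc, CG3168 and CG14696, which were lower. They are read by 10 probe sets, of which Rnf11 has 2 and every other gene 1. They were selected on the Hdac3 RNAi ratios in both backgrounds, so those ratios are given as a description and nothing is tested with them.

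The discs came from 3rd-instar larvae kept at 25 degrees, all yw and all heterozygous for en-Gal4. The 4 genotypes, with 1 array each, were PI3K plus Hdac3 RNAi (en-Gal4/UAS-PI3K ov with UAS-Hdac3 RNAi/+), Hdac3 RNAi alone (en-Gal4/+ with UAS-Hdac3 RNAi/+), PI3K alone (en-Gal4/UAS-PI3K ov) and the control (en-Gal4/+ with no UAS transgene). The engrailed driver is active in the posterior compartment of the disc. Each array with a UAS transgene thus mixes cells that express it with cells that do not. A ratio over the whole disc cannot tell fewer cells of a type from less RNA per cell. No label gives the number of discs or animals per array. Whether Hdac3 was depleted and PI3K raised rests on the labels, because neither gene is analysed here.

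Hdac3 is a class I histone deacetylase, and it acts as the catalytic subunit of a corepressor complex that includes the SMRTER protein. Such complexes remove acetyl groups from histone tails at genes where transcription factors recruit them, which represses those genes. PI3K is the lipid kinase that relays insulin receptor signalling to Akt and drives growth of the disc.

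With 1 array per genotype there is no replicate error, and no p-value was computed. Levels are intensities after each array was scaled to a common trimmed mean. A value under 26.9, the 90th percentile of 125 odorant and gustatory receptor probe sets, cannot be told from background and was raised to that floor before any ratio. A ratio with one array under the floor is a lower bound and is written as "at least". As a yardstick of measurement spread, ratios from different probe sets of the same gene differed by an SD of 0.18 log2 for Hdac3 RNAi over control and 0.24 log2 for PI3K plus Hdac3 RNAi over PI3K. Levels of different genes are not compared, because probe sets differ in response.

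The tissue label held on all 4 arrays, where 12 of 12 measured wing disc markers such as vg, nub and ap reached the floor. Markers of tissues that lie near the disc were present to unequal degrees. The summed intensity of 5 fat body markers was 6589 with Hdac3 RNAi against 3091 in control, and 824 with PI3K plus Hdac3 RNAi against 12816 with PI3K. Fat body markers thus differed in opposite directions in the 2 Hdac3 comparisons. Without PI3K 4 of 5 were at least 2-fold higher, against 0.27% of all genes. With PI3K 5 of 5 were at least 2-fold lower, against 0.843% of all genes. The part of carried-over tissue in the values of the 9 genes was not tested. The marker genes past 2-fold in an Hdac3 comparison were Fbp1, Fbp2, Lsp2, Obp99b and apolpp of fat body, Sgs3, Sgs4, Sgs5, Sgs7 and Sgs8 of salivary gland and Jon25Bi, Jon25Bii, Jon65Aiii, Jon65Aiv and yip7 of gut. All of these were lower with PI3K plus Hdac3 RNAi than with PI3K, at log2 ratios from -1.56 to a bound of -6.06. Between Hdac3 RNAi and control, 0 of the measured salivary gland and gut markers were at least 2-fold apart, against 0.554% of all genes. Testis markers, relevant because tektins are abundant in sperm tails, summed to 5534 with Hdac3 RNAi against 5458 in control and to 5373 with PI3K plus Hdac3 RNAi against 5566 with PI3K, but Pen, an importin gene that many tissues express, made up most of each sum. Without Pen, left out after its values were seen, the other 15 genes summed to 315 with Hdac3 RNAi against 285 in control and to 293 with PI3K plus Hdac3 RNAi against 279 with PI3K. Of the 16 genes, 9 were under the floor on every array and 5 reached it on all 4, with median log2 ratios of 0.29 without PI3K and 0.30 with PI3K. Mst84Db, Mst84Dc, Mst98Ca and betaTub85D were near the floor and had ratios between 0.23 and 0.39, in the same direction as Tektin-C in both backgrounds. Pen, also measured on all 4 arrays, had 0.01 without PI3K and -0.06 with PI3K. The 12 wing disc markers had medians of 0.21 and 0.51, so higher values with RNAi were not particular to testis markers. The part of testis markers in the Tektin-C values was not tested. The actin 3' to 5' ratio, a sign of RNA quality, was 3.25 with Hdac3 RNAi against 3.36 in control, and 2.85 with PI3K plus Hdac3 RNAi against 2.02 with PI3K. The PI3K array also had the lowest such ratios of the 4 arrays for eIF-4a (3.11) and GAPDH (1.92), but the highest for 18S rRNA (4.95).

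Tektin-C encodes a filament protein of the microtubules in cilia and flagella. It had an intensity of 350.4 with Hdac3 RNAi against 25.4 in control, and 382 with PI3K plus Hdac3 RNAi against 27.9 with PI3K. The 2 RNAi arrays were thus well above background and the 2 arrays without RNAi were at background, under the floor in control and next to it with PI3K. Tektin-C was at least 3.70 log2 higher with Hdac3 RNAi alone and 3.78 log2 higher when RNAi was added to PI3K, where the PI3K level was so near the floor that this too depends on it. With a floor of 50 the bounds were 2.81 and 2.93 log2, and with a floor of 100 they were 1.81 and 1.93.

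CG12773 encodes a predicted cation-chloride cotransporter, of the family that carries chloride with sodium or potassium across membranes. It had 170.6 with Hdac3 RNAi against 15.7 in control, and 166.9 with PI3K plus Hdac3 RNAi against 13.6 with PI3K. The gene was under the floor on both arrays without RNAi, and the 2 RNAi arrays were nearly equal. It was at least 6.34-fold higher with Hdac3 RNAi alone and at least 6.21-fold higher with RNAi added to PI3K. With a floor of 100 instead, these bounds shrank to log2 ratios of 0.77 and 0.74.

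CG9021 had 315 with Hdac3 RNAi against 40.6 in control, and 137 with PI3K plus Hdac3 RNAi against 30.4 with PI3K. Its level was above the floor on all 4 arrays, and unlike Tektin-C and CG12773 it differed between the 2 RNAi arrays. It was 7.75-fold higher with Hdac3 RNAi alone and 4.51-fold higher with RNAi added to PI3K. With a floor of 100 the second value was 0.46 log2, since both arrays without RNAi are under that level.

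Rnf11 encodes a RING finger protein, a class that includes many ubiquitin ligases. Its brighter probe set had 859 with Hdac3 RNAi against 388 in control, and 673 with PI3K plus Hdac3 RNAi against 189 with PI3K. It was 2.22-fold higher with Hdac3 RNAi alone and 3.57-fold higher with RNAi added to PI3K. The second probe set, which did not choose the gene, was much dimmer and had 57.9 with Hdac3 RNAi against 40.6 in control, and 35.4 with PI3K plus Hdac3 RNAi against 22.6, under the floor, with PI3K. Its log2 ratios were 0.51 and at least 0.40, in the same direction as the brighter probe set (1.15 and 1.84) but smaller. The mean over both probe sets was 0.83 and 1.12 log2, so the first value fell under 2-fold.

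**Figure D1:**
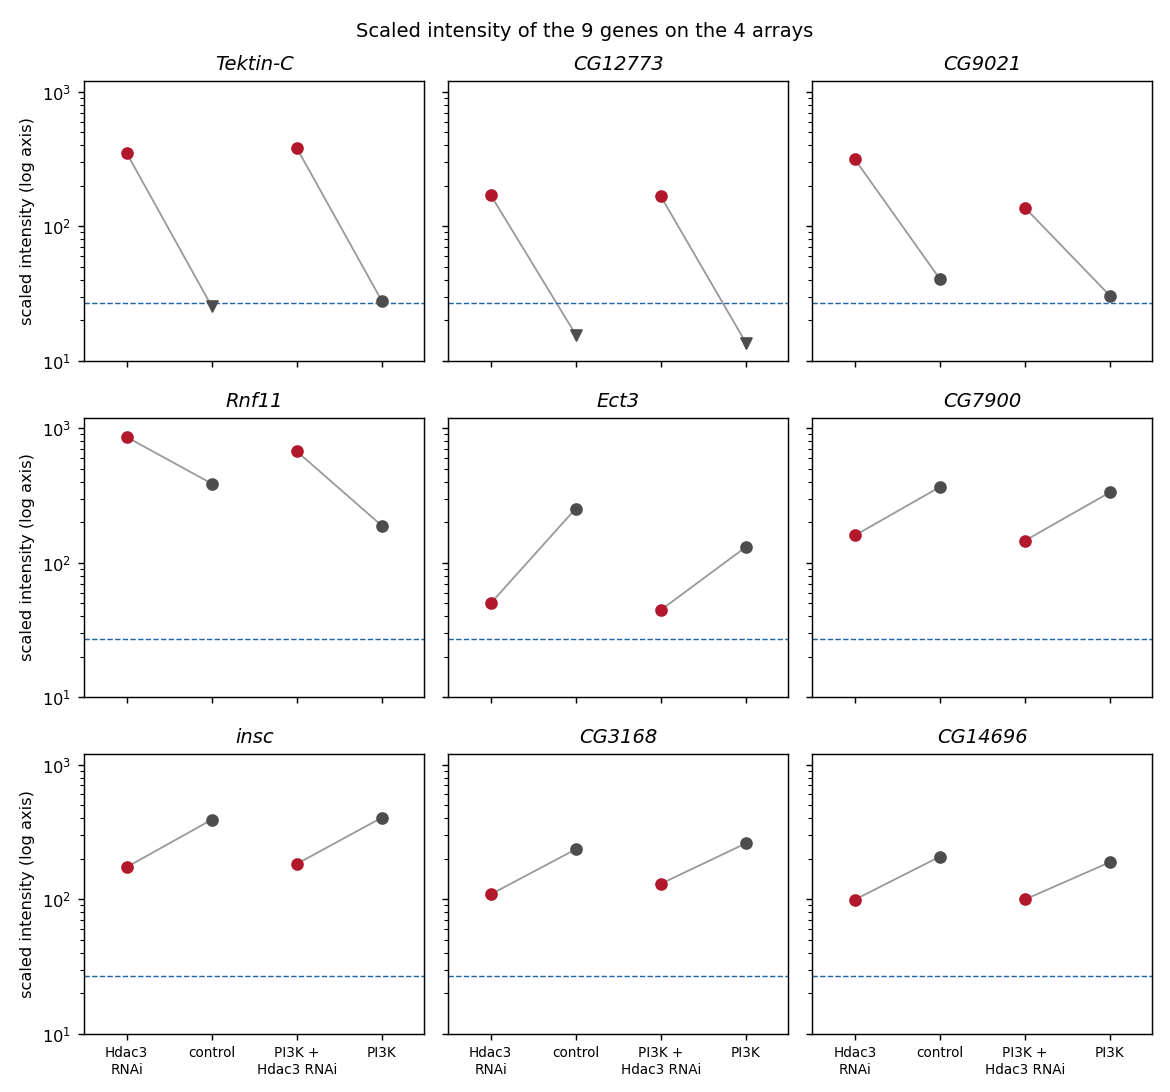
Scaled intensity (log axis) of each of the 9 genes on the 4 arrays, with Hdac3 RNAi arrays in red and arrays without RNAi in grey; the dashed line is the floor of 26.9 and triangles are values under it. Each line joins a pair of single arrays whose genotype labels differ only in Hdac3 RNAi. The arrays of a pair also differed in other ways, such as the level of fat body markers. Every pair of a gene slopes the same way, but the genes were chosen on these ratios.

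Ect3, a member of the beta-galactosidase family of lysosomal enzymes, was the member most reduced. It had 49.9 with Hdac3 RNAi against 253 in control, and 44.5 with PI3K plus Hdac3 RNAi against 131 with PI3K. The 2 RNAi arrays were alike, while the 2 arrays without RNAi differed from each other. Ect3 had a log2 ratio of -2.34 with Hdac3 RNAi alone, where it ranked 1 of 7407 genes from the lowest, and of -1.55 with RNAi added to PI3K. With a floor of 100, which both RNAi arrays are under, the second value was -0.39.

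CG7900 is predicted to encode an amidase of the fatty acid amide hydrolase type. It had 159 with Hdac3 RNAi against 365 in control, and 146 with PI3K plus Hdac3 RNAi against 333 with PI3K. Its log2 ratio was -1.20 without PI3K and -1.19 with PI3K.

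The gene insc encodes Inscuteable, the adaptor that links the Par polarity complex to the spindle orientation machinery in neuroblasts and sensory organ precursors. It had 173 with Hdac3 RNAi against 389 in control, and 183 with PI3K plus Hdac3 RNAi against 403 with PI3K. The log2 ratios were -1.17 without PI3K and -1.14 with PI3K, again nearly the same.

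CG3168, a gene that RefSeq also lists as Slc22a18 and so a predicted membrane transporter, had 109 with Hdac3 RNAi against 235 in control, and 130 with PI3K plus Hdac3 RNAi against 260 with PI3K. Its log2 ratios were -1.11 and -0.999, the second just short of 2-fold. CG14696 had 99.2 with Hdac3 RNAi against 207 in control, and 99.5 with PI3K plus Hdac3 RNAi against 188 with PI3K. Its log2 ratios were -1.06 and -0.92, so its second value was under 2-fold as well. On all 4 arrays CG7900, insc, CG3168 and CG14696 stayed well above the floor, with log2 ratios between -1.20 and -0.92 in either background.

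In the comparison of Hdac3 RNAi with control, 7 of the 9 genes reached the floor on both arrays, and all 7 were at least 2-fold apart, 2 higher and 5 lower, while the other 2 were bounds above 2-fold. Over all genes measured on both arrays, 0.554% were at least 2-fold apart in that comparison, 0.27% higher and 0.284% lower, and the share was 0.647% with bounds included. With RNAi added to PI3K, 8 of the 9 were measured on both arrays, 3 higher by at least 2-fold and 3 lower, and CG12773 was a bound above 2-fold. The share over all genes was 1.23% there, 0.388% higher and 0.843% lower, and 1.45% with bounds included. Because these ratios chose the genes, nothing is read from the counts.

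Of 7696 genes that reached the floor on 2 arrays or more, 11 (0.143%) were at least 2-fold apart the same way in both Hdac3 comparisons, bounds included. Of the 9 genes, 7 belong to these 11, and CG3168 and CG14696 lie just outside. The other 4 were all lower with RNAi. Among them AsnS, the asparagine synthetase gene, had log2 ratios of -1.63 without PI3K and -1.27 with PI3K. Cyp18a1, a cytochrome P450 that inactivates ecdysone, had -1.01 and -1.10. The cuticle protein gene Cpr64Ac had -1.57 and -2.66 but was also 2.10 log2 higher in PI3K discs than in control, and CG10912 had -1.45 and a bound of -1.25. The next gene in the lower direction was Dgp-1, at -1.05 and -0.86.

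Genes higher with RNAi in both backgrounds were fewer past the members. After Tektin-C, CG12773, CG9021 and Rnf11, ordered by the smaller of the 2 ratios, the next was the heat shock chaperone gene Hsp68, at 0.90 log2 without PI3K and 2.26 with PI3K. It was followed by pigs (1.01 and at least 0.68, with the PI3K array under the floor), del (0.65 and 0.77), CG13678 (0.87 and 0.65) and CG11357 (0.89 and 0.64). No gene other than the 4 was at least 2-fold higher in both comparisons. The pattern of del, with 179 in Hdac3 RNAi against 114 in control discs and 205 in PI3K plus Hdac3 RNAi against 120.0 in PI3K discs, differed least between the backgrounds, and its size was under 2-fold.

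**Figure D2:**
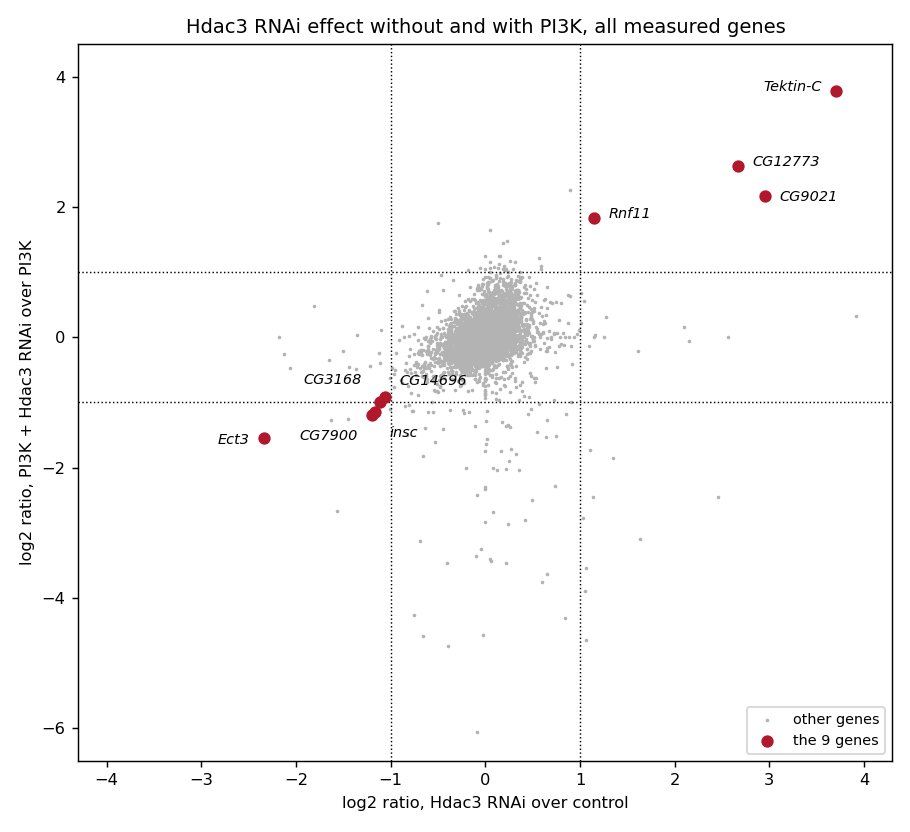
Log2 ratio of Hdac3 RNAi over control (x) and of PI3K plus Hdac3 RNAi over PI3K (y) for every gene that reached the floor on 1 array or more, with the 9 genes in red and the dotted lines at 2-fold; the 2 axes share no array. In the upper right only the 4 genes higher with RNAi are past both 2-fold lines, with Hsp68 (0.90 and 2.26) close to Rnf11. The 5 lower ones lie in the lower left among other genes.

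The PI3K ratios of the 9 genes were not part of the choice, although they use the same 4 arrays. Without RNAi, 7 of the genes could be measured in PI3K discs and control, and 1 of them was at least 2-fold apart, against 1.24% of all genes. With RNAi, all 9 could be measured, and 1 was at least 2-fold apart, against 0.51% of all genes. The 6 genes Tektin-C, CG12773, CG7900, insc, CG3168 and CG14696 had PI3K log2 ratios of at most 0.26 in size with RNAi and, for the last 4, without RNAi as well. Without RNAi, CG12773 has no PI3K ratio because both arrays were under the floor, and Tektin-C, with 27.9 in PI3K discs and control under the floor, has only a bound of at least 0.05. Over all genes, the middle 95% of PI3K ratios lay between -0.63 and 0.49 without RNAi and between -0.36 and 0.34 with RNAi. The measured ratios of those 6 were inside these ranges. The 6 were grouped by these same PI3K ratios, so nothing is read from that.

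The other 3 genes, CG9021, Rnf11 and Ect3, had lower levels with PI3K, to unequal degrees in the 2 backgrounds. Rnf11 had 189 with PI3K against 388 in control, a log2 ratio of -1.04, and 673 with PI3K plus Hdac3 RNAi against 859 with Hdac3 RNAi alone, a ratio of -0.35. Ect3 had a PI3K ratio of -0.95 without RNAi and of -0.16 with RNAi, where its level was already low. CG9021 differed in the other way, with -0.42 without RNAi, close to the floor, and -1.20 with RNAi. The dimmer Rnf11 probe set had -0.71 with RNAi and at least 0.60 log2 lower without it.

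The difference between the Hdac3 effects in the 2 backgrounds, with PI3K minus without, is the departure from additivity. It was 0.79 for Ect3, 0.69 for Rnf11 and -0.78 for CG9021, while the SD over all genes was 0.36. These departures are differences between the 2 ratios that chose the genes, so they are a description. For Rnf11 the mean over both probe sets gave a departure of 0.29, under that SD. The other 6 genes, set apart above by their small PI3K ratios, had departures of at most 0.14 in size. Those of Tektin-C and CG12773 rest on values at the floor. None of the 7 genes measured on all 4 arrays had a departure of at least 1 log2, a size that 1.25% of all genes passed, and nothing is read from this because the choice used the same values. The PI3K array enters the departure of every gene, CG9021 included. Among the 4 arrays it had the lowest actin, eIF-4a and GAPDH 3' to 5' ratios, though the highest for 18S rRNA. It also had the highest fat body sum. The part of RNA quality or fat body in these departures was not tested.

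**Figure D3:**
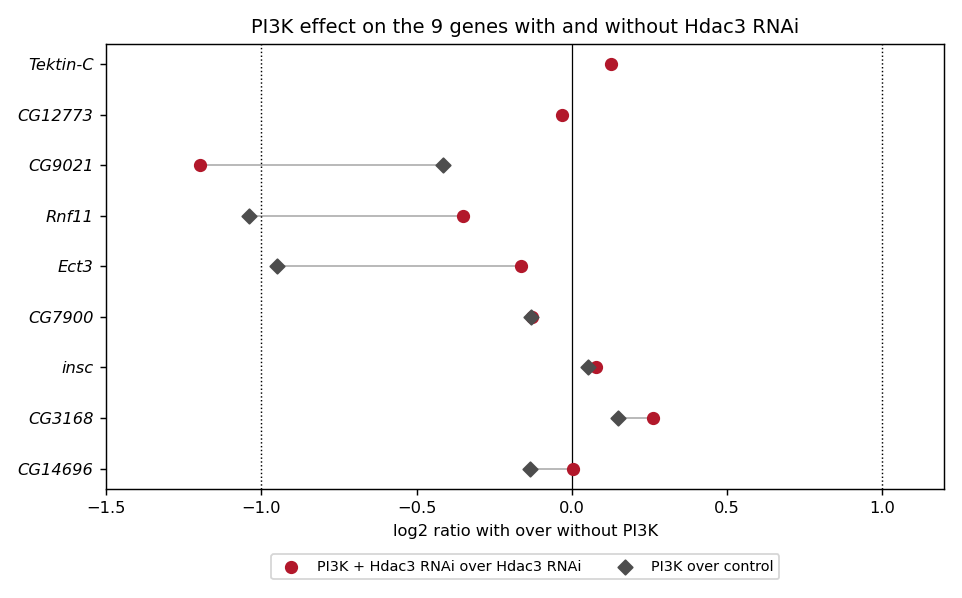
Log2 ratio with over without PI3K for the 9 genes, in discs with Hdac3 RNAi (red circles) and without (grey diamonds); dotted lines mark 2-fold. No diamond is drawn for CG12773, under the floor on both arrays, or for Tektin-C, whose ratio is a bound. Rnf11, Ect3 and CG9021 lie left of 0 with unequal values, and the other genes are within 0.26 of 0.

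The 9 genes are spread over the genome. By the RefSeq gene table, 3 lie on chromosome arm 3R (Ect3, CG7900, CG14696), 2 on X (CG12773, CG3168) and 1 each on 2L (CG9021), 2R (insc), 3L (Tektin-C) and 4 (Rnf11). Of the named genes that matched the table, 25.0% lie on 3R, 15.7% on X and 0.55% on 4. None of the 9 neighbours another in the order of named genes.

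The nearest 2 named genes on either side of each, 36 in all, were read as a measurement of the surrounding locus that the choice did not use. Of 22 measured in Hdac3 RNAi and control, 1 was at least 2-fold apart, against 0.554% of all genes, and the other 21 were within 0.40 log2 of 0. Of 23 measured with PI3K plus Hdac3 RNAi and PI3K, 0 were at least 2-fold apart, against 1.23% of all genes. Of these 23, 19 were within 0.40 log2 of 0, and the values ranged from -0.64 to 0.93. Among so few genes, a count of 0 cannot be told from the share over all genes. The median log2 ratio of the neighbours was -0.02 and -0.01, beside -0.03 and -0.03 over all genes.

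The single locus with a neighbour past 2-fold was that of Rnf11. Zip102B, a zinc transporter gene next to it on chromosome 4, had 525 with Hdac3 RNAi against 34.9 in control, a log2 ratio of 3.91, but 512 with PI3K plus Hdac3 RNAi against 408 with PI3K, a ratio of 0.33. Zip102B was thus low in control alone, whereas Rnf11 was high on both RNAi arrays. PMCA, a plasma membrane calcium pump gene whose annotated span overlaps that of Rnf11, had 541 with Hdac3 RNAi against 504 in control, and 494 with PI3K plus Hdac3 RNAi against 354 with PI3K, or 0.10 and 0.48 log2. Rad23, on the far side of Zip102B, had -0.00 and -0.14.

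Around Tektin-C, the histone H2B ubiquitin ligase gene Bre1 on one side had log2 ratios of -0.13 without PI3K and 0.02 with PI3K. On the other side S6k, the kinase downstream of TOR, had 0.33 and 0.88, and CG42272 had 0.37 and 0.93, both far smaller than the ratios of Tektin-C. The genes beside CG12773 were at -0.03 to 0.13 for the nearest, Tsp2A and CG11417, beside ratios of at least 2.63 for CG12773 itself. Of the neighbours of CG9021, the seminal fluid genes Acp26Aa and Acp26Ab and CG14000 were under the floor on every array, and bchs had -0.26 and -0.25. The lipid kinase gene sktl, whose annotated span overlaps that of insc, had 247 with Hdac3 RNAi against 247 in control and 221 with PI3K plus Hdac3 RNAi against 218 with PI3K. CG7910, the amidase relative next to CG7900, was under the floor on every array, and puc, the JNK phosphatase gene on the other side, had -0.06 and 0.05. Beside CG14696, Tpc1 had -0.29 and -0.35, in the same direction as CG14696 but smaller, and Leash had 0.30 and -0.17.

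**Figure D4:**
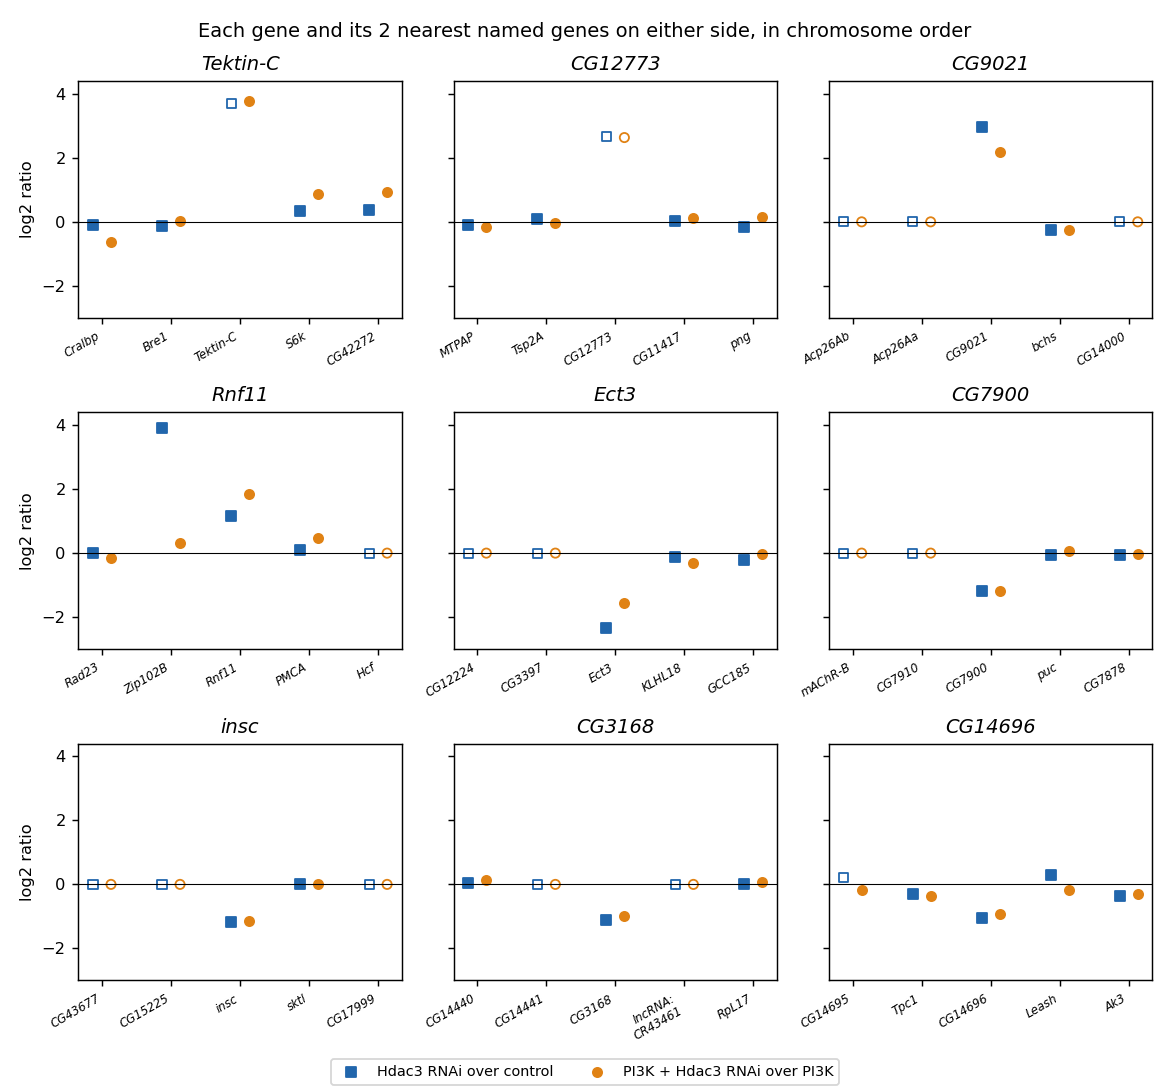
Log2 ratio of each of the 9 genes (middle of its panel) and of its 2 nearest named genes on either side in chromosome order, for Hdac3 RNAi over control (blue squares) and PI3K plus Hdac3 RNAi over PI3K (orange circles); open symbols have at least 1 array under the floor. Apart from Zip102B beside Rnf11, no neighbour passes 2-fold.

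Genes related to the 9 by function were read from lists that leave the 9 out. Of 93 related genes on the array, 62 were measured in each Hdac3 comparison, and 0 were at least 2-fold apart in either one, against 0.554% of all genes without PI3K and 1.23% with PI3K. Among so few genes, a count of 0 cannot be told from these shares. The median log2 ratio of the related genes was 0.04 in both comparisons.

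Beside Tektin-C, 15 of 23 axoneme and cilium genes were under the floor on every array, among them Tektin-A, the mechanosensory channel genes iav and nompC, and the ciliary transcription factor gene Rfx. The 8 that were measured had a median of 0.03 without PI3K and -0.08 with PI3K, with the axonemal dynein gene Dhc93AB at 0.04 and -0.06 and the forkhead factor gene fd3F at 0.01 and 0.22. Beside CG12773, the potassium-chloride cotransporter gene kcc had 112 with Hdac3 RNAi against 140 in control, and 86.9 with PI3K plus Hdac3 RNAi against 106 with PI3K, opposite in direction to CG12773 and small. NKCC was under the floor on every array.

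Beside insc, 15 of 20 genes of asymmetric division and polarity were measured, with medians of 0.17 and 0.30. Of its partners, pins had 0.18 without PI3K and 0.16 with PI3K, baz 0.17 and 0.33, and aPKC 0.17 and 0.35, each higher where insc was lower. The 12 wing disc markers had larger medians, 0.21 and 0.51, so a rise of this size was not particular to the partners of insc. The neuroblast and precursor genes ase, sna and wor were under the floor on every array. Beside Ect3, 7 of 9 lysosomal enzyme genes were measured, with medians of 0.03 and -0.24. Gal, the other beta-galactosidase gene, had 158 with Hdac3 RNAi against 141 in control, and 124 with PI3K plus Hdac3 RNAi against 190 with PI3K. The amidase genes related to CG7900 had medians of -0.06 and -0.21, with CG5112 at -0.12 and -0.35.

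Among transporters listed beside CG3168, 5 of 8 were under the floor on every array. Orct, an organic cation transporter gene, had 0.91 without PI3K and -0.41 with PI3K, so its direction differed between backgrounds. The Nedd4-family ligase genes listed with Rnf11, Nedd4, Smurf and Su(dx), had ratios between 0.03 and 0.24.

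Of the corepressor and acetylation genes around Hdac3 itself, 0 were at least 2-fold apart in either comparison. The shares over all genes were 0.554% without PI3K and 1.23% with PI3K, so a count of 0 is near them. Of 13 measured deacetylase and corepressor genes, the median was -0.02 without PI3K and 0.05 with PI3K. Smr, which encodes SMRTER, had 1390 with Hdac3 RNAi against 1046 in control, and 1166 with PI3K plus Hdac3 RNAi against 686 with PI3K. These are 0.41 and 0.76 log2, beside medians of 0.21 and 0.51 over the 12 wing disc markers. HDAC1, a class I relative of Hdac3, had 0.18 and 0.17. The 10 histone H4 acetyltransferase and dosage compensation genes had medians of -0.12 and 0.09, with mof, which encodes the acetyltransferase of the dosage compensation complex, at -0.23 and -0.01.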

How the data were processed

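Total RNA from wing discs of 4 genotypes, 1 array each, was labelled with biotin and hybridised to Affymetrix arrays, per the labels. The deposited values are intensity on a linear scale for 18952 probe sets, made with MAS5 per the submitters' processing notes, with version and settings not given in the sources used here. Of these, 183 are controls, and a 2016 annotation gives 1 symbol to 13646, several to 402 and none to 4721. Genes took their brightest 1-symbol probe set. Arrays were scaled to a common 2% trimmed mean, floored at 26.9 and compared as log2 ratios (Python 3.11.15, pandas 2.3.3, SciPy 1.17.1). The 2-fold counts are over genes that reached the floor on both arrays. Gene order came from the RefSeq table of Release 6, and 99.2% of the named probe sets matched it. The counting was run on simulated data with large changes in genes well above the floor. Changes near 2-fold and values at the floor were not covered by it.

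The 9 genes, lists and comparisons were chosen with earlier results of these data known. Named genes were the 9, their 2 flanking named genes on each side, members of the lists, and, per direction, the 5 other genes with the largest smaller ratio. List and flanking genes described under 2-fold, which that rule does not name, were chosen after their values were seen. Other scalings, floors and probe set rules were tried. No sequences are shown, since none were used here. With so few arrays, precision is limited throughout.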

Additional observations from a re-analysis of the deposited data

How the results depend on the processing

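No paired analysis was possible because each genotype has 1 array, and no replicate could be left out. Of 252 values of the 9 genes under 7 other settings, 229 moved by less than the SD between probe sets of a gene and 23 by more, with none of the called values changing sign. All 126 Hdac3 ratios kept their sign. The 3 other scalings moved none of the values past that SD. The floor matters most, because Tektin-C, CG12773 and CG9021 without RNAi, and Ect3 with it, are near background. With a floor of 50, genes at least 2-fold apart numbered 54 for PI3K plus Hdac3 RNAi over PI3K (92 in the report) and 23 for PI3K plus Hdac3 RNAi over Hdac3 RNAi (38), and flanking genes at least 2-fold apart in Hdac3 RNAi against control numbered 0 (1), since Zip102B in control is under that floor. With a floor of 100, the 9 genes at least 2-fold apart in both Hdac3 comparisons numbered 4 (7), flanking genes 0, and all genes 14 for Hdac3 RNAi over control (41), 36 and 12 for the same 2 comparisons as at a floor of 50, and 39 for PI3K over control (92). Fewer genes can be measured at higher floors. With no floor, genes at least 2-fold apart numbered 63 for Hdac3 RNAi over control, 141 for the doubly transgenic discs over PI3K and 73 for them over Hdac3 RNAi, and CG12773 had 3.45 and 3.61 log2.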
